A study of Caenorhabditis elegans with 2 samples.

Results

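Introns of protein-coding genes held 206 of the 1489 peaks of DAF-16, a forkhead transcription factor of the FOXO family, in the nematode Caenorhabditis elegans. A peak was a member when its summit lay inside a protein-coding gene but in no exon of any protein-coding gene, and more than 100 bp from the nearest transfer, small nucleolar or small nuclear RNA gene. Without the distance to those small RNA genes 393 summits would have qualified, and of the 187 left out 142 lay by a transfer RNA gene, 37 by a small nucleolar RNA gene and 8 by a small nuclear RNA gene. Apart from the members, 682 peaks lay outside protein-coding genes, 128 in exons and 448 by small RNA genes, and the remainder were mitochondrial. The members fell in 202 separate regions, since a few intervals overlapped, and 194 of them were 420 bp wide.

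The peaks came from chromatin immunoprecipitation and sequencing (ChIP-seq) of whole hermaphrodites at the L4 larval stage, with an antibody against GFP, in 2 biological replicates of 1 group. The strain was ZM8745, with the mu86 allele of daf-16, the e1370 allele of daf-2, which encodes the insulin receptor, and the transgene hpSi15, in which the ges-1 promoter drives GFP::daf-16a. Animals were taken 54 hours after synchronization as starved L1 larvae following bleaching. The ges-1 promoter is active in the intestine, so the tagged protein was made mainly in 1 tissue while the chromatin came from the whole animal. The labels differ on whether GFP was at the start or the end of the protein. Input and untagged libraries were not analysed here, and background signal without the tagged protein was therefore not measured.

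DAF-16 is held in the cytoplasm while insulin-like signalling through DAF-2 is active and enters the nucleus when that signalling is low, as in daf-2 mutants, where it controls genes of stress resistance, metabolism and lifespan. It binds DNA through its forkhead domain at the DAF-16 binding element. The DAF-16 associated element, common near genes that respond to it, can also be bound by GATA factors such as the intestinal ELT-2 and by the zinc finger protein PQM-1. In C. elegans, long first introns often hold enhancers and the promoters of shorter isoforms.

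The sequences that carry the results below are the 101 bases centred on a summit, read 5′ to 3′ on the host gene's strand from the WBcel235 assembly, which is ce11. The first set has the highest signal of all members, the binding element in its G form at high signal, or the associated element. Capitals mark matches on either strand to the associated element TGATAAG, read as CTTATCA from the opposite strand, the binding element TGTTTAC, read there as GTAAACA, the 7-mers GACGCAG, read there as CTGCGTC, and GAGAGAG, read there as CTCTCTC, and the E-box CACGTG.
pkg-2, chrIV:8527763-8527863, plus strand: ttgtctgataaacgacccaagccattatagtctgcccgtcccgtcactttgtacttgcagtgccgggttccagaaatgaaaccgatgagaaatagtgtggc
ipla-3, chrV:20729072-20729172, minus strand: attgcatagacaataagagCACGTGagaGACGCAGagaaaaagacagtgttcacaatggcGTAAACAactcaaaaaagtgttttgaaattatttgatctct
unc-132, chrV:3697218-3697318, plus strand: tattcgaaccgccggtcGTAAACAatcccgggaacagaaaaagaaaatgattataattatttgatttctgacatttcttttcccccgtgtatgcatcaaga
F46G10.1, chrX:13310853-13310953, minus strand: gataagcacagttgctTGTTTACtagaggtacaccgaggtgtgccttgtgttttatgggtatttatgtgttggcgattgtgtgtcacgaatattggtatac
tpst-1, chrIII:12658736-12658836, minus strand: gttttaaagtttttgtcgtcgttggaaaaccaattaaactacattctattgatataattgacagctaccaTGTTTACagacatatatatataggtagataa
pkg-2, chrIV:8530786-8530886, plus strand: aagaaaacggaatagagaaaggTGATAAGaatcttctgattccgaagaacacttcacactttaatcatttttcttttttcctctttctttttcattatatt
Y51A2D.13, chrV:18577597-18577697, minus strand: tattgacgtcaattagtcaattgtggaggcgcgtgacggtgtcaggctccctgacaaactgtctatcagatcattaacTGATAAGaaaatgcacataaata
F59F4.3, chrX:15842715-15842815, minus strand: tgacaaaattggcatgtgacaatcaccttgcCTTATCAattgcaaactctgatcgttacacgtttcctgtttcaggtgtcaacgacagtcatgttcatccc
The highest window, in pkg-2, held none of these motifs. The ipla-3 window held the binding element, GACGCAG and an E-box together.

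A second set shows the 7-mer GACGCAG and the E-box, since these were also more frequent at members than at lower-ranked intronic entries. Capitals mark the same motifs.
epg-9, chrIV:2602134-2602234, plus strand: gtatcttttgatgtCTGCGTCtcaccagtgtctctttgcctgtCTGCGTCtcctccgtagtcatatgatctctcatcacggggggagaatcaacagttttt
Y111B2A.12, chrIII:12612637-12612737, plus strand: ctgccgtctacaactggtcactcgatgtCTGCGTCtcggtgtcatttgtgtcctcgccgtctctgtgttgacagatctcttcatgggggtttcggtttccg
daf-5, chrII:14040446-14040546, minus strand: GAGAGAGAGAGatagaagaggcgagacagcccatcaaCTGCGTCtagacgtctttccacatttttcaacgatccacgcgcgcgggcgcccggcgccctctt
fkh-7, chrIV:5591252-5591352, plus strand: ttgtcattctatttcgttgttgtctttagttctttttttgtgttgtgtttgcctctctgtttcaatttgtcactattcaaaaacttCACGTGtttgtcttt
The epg-9 window held GACGCAG at 2 places, and the daf-5 window held it beside a run of GA.

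The windows of the members ranked 2 and 4 by signal, in mom-1 and Y41G9A.17, shared a run of 13 bases, which is in capitals here.
mom-1, chrX:6296537-6296637, plus strand: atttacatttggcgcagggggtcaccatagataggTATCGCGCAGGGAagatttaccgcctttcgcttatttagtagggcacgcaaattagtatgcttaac
Y41G9A.17, chrX:2997093-2997193, minus strand: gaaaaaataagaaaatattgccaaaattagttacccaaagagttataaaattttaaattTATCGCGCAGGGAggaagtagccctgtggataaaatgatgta
This run, TATCGCGCAGGGA, contains the core of the motif known from recruitment sites on X of the dosage compensation complex, which binds both X chromosomes of hermaphrodites and lowers their expression. All 8 copies of the run in the nuclear genome are on X. Within 100 bp of a summit it was present at 2 members and 4 intergenic peaks, with signals from 306.4 to 358.9, and at 1 of 9329 lower-ranked intronic entries, with a signal of 63.9. The shorter core CGCGCAGGG has 77 copies in the nuclear genome, 33 of them on X. It was present at the same 2 members, at 8 intergenic and 1 exonic peak, all on X, at 4 lower-ranked intronic entries with signals from 21.4 to 63.9, only 2 of them on X, and at none of the 448 peaks by small RNA genes, which allows a share of up to 0.670% by counting error. These strings were chosen after the windows were seen and their counts are descriptions with no test.

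Signal here is the value that the authors deposited for each interval, on a scale that the sources used here do not state, so it only ranks peaks within a list. Members had signals from 84.7 to 339.8 with a median of 116.1, against a median of 110.9 for intergenic peaks, 104.3 for exonic peaks and 146.0 for peaks by small RNA genes. Their median rank among the 1464 nuclear peaks was 762.5, and 7 members were among the 100 highest nuclear peaks. Those 100 also held 45 intergenic peaks, 4 exonic peaks and 44 by small RNA genes, while members were 206 of the 1464. The best-placed member ranked 16, and the upper part of the signal range, up to 474.2 for intergenic peaks and 556.4 for peaks by small RNA genes, held no member. Entries in introns also reached the optimal set less often than intergenic entries. Of 9535 intronic entries in the pooled list, which holds peaks and background from both replicates, 206 reached the optimal set, or 2.16% (exact 95% interval 1.88% to 2.47%). For comparison, the share was 6.46% for intergenic entries, 1.40% for exonic entries and 61.3% for entries by small RNA genes, and over all nuclear entries it was 4.88%. The entries of the optimal set were those with the highest pooled signal, so these shares describe the selection and carry no test. Just inside the threshold lay peaks in prk-1, aak-2 and hpk-1, with signals of 84.66, 84.74 and 85.03. Just outside lay intronic entries in F31E3.12, pkg-2 and aqp-1, with 84.22, 84.21 and 84.15, and those of F31E3.12 and aqp-1 are named here only for that place.

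The highest member lay in intron 4 of pkg-2, which encodes a protein of the cGMP-dependent kinase family, on chromosome IV from 8527706 to 8527920. Its signal was 339.8 in the optimal set, 193.9 in replicate 1, where it ranked 43, and 143.4 in replicate 2, where it ranked 48. In the same intron of 6824 bp, the peak from 8530626 to 8531045 held TGATAAG and had a signal of 233.3. That peak had 144.6 in replicate 1 and 86.1 in replicate 2, so it ranked 95 in one and 243 in the other. The second highest member lay in intron 7 of mom-1, the Porcupine homologue needed for Wnt secretion, on chromosome X from 6296461 to 6296754. Its signal was 330.8, with 180.1 in replicate 1 and 159.7 in replicate 2. Both replicates ranked it among their 48 highest entries. The ipla-3 peak, in a gene of the patatin-like phospholipase family on chromosome V from 20729019 to 20729231, had 328.7, with 173.7 and 149.4 in replicates 1 and 2. It lay in the first of 18 introns, 140 bp downstream of an alternative start of the gene and 150 bp downstream of its outermost start. The Y41G9A.17 peak, on chromosome X from 2996928 to 2997220, had 306.4, with 152.8 and 163.4. These top members and the ints-8 peak were narrower than most, from 213 to 294 bp.

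Some members lay on non-coding RNA genes that the distance rule does not name. The ints-8 peak had its summit inside rpr-1, the RNA of ribonuclease P, and ints-8 itself encodes a subunit of the Integrator complex. Its signal was 294.0, with 173.9 in replicate 1 and 118.2 in replicate 2. Summits inside srpr-2.2 in klp-6, with signals of 195.8 and 167.2, and inside srpr-1.2 in ckb-2, with 125.2, lay on genes for the RNA of the signal recognition particle. The klp-6 intervals overlapped and matched the same entry in each replicate. The summit in B0361.11, with 200.9, lay inside the microRNA gene mir-2214. These 3 hosts are outside the rule for named genes and were picked after their values were seen. Within 100 bp of any such other non-coding gene lay 29 members, 14.1%, against 5.77% of lower-ranked intronic entries. Of these, 24 were annotated only as non-coding RNA. Without these members and the like lower-ranked entries, a comparison added once the data had been seen, TGTTTAC (2.64-fold) and GGTTCGA (3.49-fold) passed against lower-ranked entries (both with adjusted exact p = 0.0412), which they did not with all members, and the calls for first introns, alternative starts and the other motifs did not change.

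The next members by signal were in fkh-7, epg-9, ppfr-1, slc-25A21, lips-10 and unc-132. The fkh-7 gene encodes a forkhead factor, and its peak in a first intron of 16465 bp had a signal of 229.5, with 124.0 in replicate 1 and 107.9 in replicate 2. The peak in epg-9, the autophagy gene related to ATG101, had 217.6, with 118.8 and 96.9 in the replicates. Signals were 212.9 for ppfr-1, a regulatory subunit of protein phosphatase 4 by homology, 209.8 for slc-25A21, a mitochondrial carrier, 206.7 for the lipase gene lips-10 and 204.0 for unc-132.

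All 206 members overlapped an entry in both replicate lists, and of the 682 intergenic peaks 681 did in replicate 1 and 680 in replicate 2. The optimal set was made from both replicates, so this overlap is largely set by the selection. Within the 1489 highest entries of a replicate lay 174 members for replicate 1 and 166 for replicate 2. Both sets held 138 members, 67.0% with an exact interval from 60.1% to 73.4%, while 36 were only in replicate 1, 28 only in replicate 2 and 4 in neither. Intergenic peaks were in both sets at 62.9%, from 59.2% to 66.5% (Fisher's exact test, two-sided, p = 0.321). The medians of the members' ranks were 815.5 and 761, and the lowest-placed members ranked 6807 in replicate 1 and 11916 in replicate 2. Across the 206 members the replicate signals had a Spearman rho of 0.415, a description across peaks of the same 2 libraries, and the members were selected on both. In the tests here the units are peaks, not animals or libraries, so their p-values do not measure the spread between replicates.

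**Figure D1:**
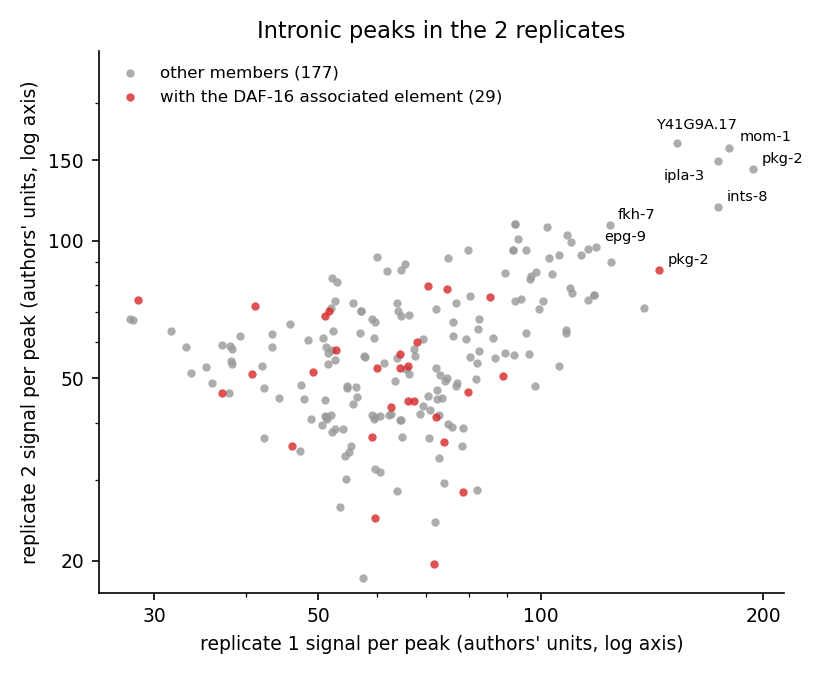
Signal per peak of the 206 intronic members in replicate 1 (x axis) and replicate 2 (y axis), in the authors' units on log axes, with 29 members that hold the DAF-16 associated element in red. The 5 members with the highest pooled signal stand apart at the upper right in both replicates, and the red points lie mostly among the rest, with pkg-2 at 144.6 and 86.1 the highest of them.

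The question of position was whether members favoured the first intron, counted in the containing transcript with the start farthest upstream. First introns held 86 members, 41.7% with an exact interval from 34.9% to 48.8%. Of the 9329 lower-ranked intronic entries of the pooled list 28.0% were in first introns, a 1.49-fold difference (Fisher's exact test, two-sided, p = 2.95e-05). Among the 94 members in the upper part of the optimal set by signal, the difference was 1.29-fold and did not pass (exact p = 0.0836). Intron 2 held 28 members, intron 3 held 17, intron 4 held 24, intron 5 held 14 and later ones 37. First introns make up 25% of intronic bases, and the density of members was 10.4 per Mb in first introns and 4.83 per Mb in later ones.

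Most members lay in long introns. The median length of the host intron was 3042 bp, from 46 to 86515 bp, against 783 bp for lower-ranked entries, and 145 members (70.4%) were in introns of at least 1000 bp, against 42.0%. The density was 2.50 members per Mb of intron in introns under 250 bp, with an exact interval from 1.33 to 4.27, 3.96 at 250 up to 1000 bp, 6.19 at 1000 up to 4000 bp and 14.6 at 4000 bp or more, from 11.6 to 18.1. In the longest class it was 18.5 per Mb in first introns, with an exact interval from 13.4 to 24.8, and 11.8 per Mb in later ones, from 8.32 to 16.1. At 1000 up to 4000 bp it was 11.2 per Mb in first introns and 4.56 per Mb in later ones, with intervals from 7.42 to 16.1 and from 3.18 to 6.34 that do not overlap. At 250 up to 1000 bp the densities were 4.12 and 3.92. In introns of at least 1000 bp, a restriction added once the data had been seen, first introns held 49.7% of members and 35.0% of lower-ranked entries (exact p = 3.91e-04). The median distance from summit to exon was 631 bp for members and 165 bp for lower-ranked entries. In 25 members the intron was shorter than the peak, so the interval also covered exons.

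**Figure D2:**
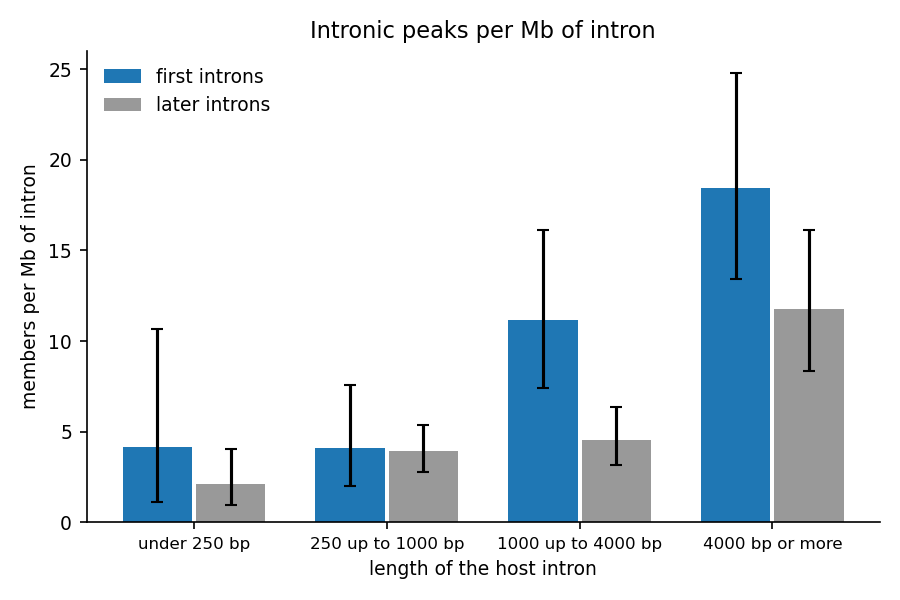
Intronic members per Mb of intron (y axis) by length of the host intron (x axis), in first (blue) and later (grey) introns, with exact 95% intervals that cover the counting of peaks only. Density is highest in introns of 4000 bp or more, at 18.5 and 11.8 per Mb, and first and later introns are close at 250 up to 1000 bp, at 4.12 and 3.92.

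Alternative starts of the host were the next position examined, meaning starts of any annotated transcript of the gene other than the outermost start. The window ran from 1000 bp upstream to 500 bp downstream of such a start. Of the members, 62 had their summit there, 30.1% (exact interval 23.9% to 36.9%), compared with 19.1% of lower-ranked intronic entries (1.58-fold, Fisher's exact test, two-sided, p = 1.61e-04). Density was 12.9 members per Mb in these windows and 5.22 per Mb in introns away from any start. Each summit was counted once, at an alternative start first, so summits in the windows of both an alternative and the outermost start are among the 62. The outermost start of the host, with no alternative start in reach, had 9 members, 4.37% against 9.64%. The start of another gene, with no start of the host in reach, also had 9, against 4.32%. The other 126 members, 61.2%, had no start in the window. Hosts with more than one annotated start held 78.6% of members and 58.5% of lower-ranked entries. The alternative start difference did not pass among the 94 members of higher signal (1.34-fold, exact p = 0.114). It also missed in introns of at least 1000 bp (1.28-fold, exact p = 0.0844) and in windows of 40 to 50% G or C (1.33-fold, exact p = 0.141), both chosen after the data were seen.

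Members at alternative starts lay more often upstream than downstream, in a window that itself reaches farther upstream than downstream. The summit was upstream in 52 of 62 members, 83.9% with an exact interval from 72.3% to 92.0%, and in 67.5% of the 1778 lower-ranked entries at alternative starts, from 65.3% to 69.7%. No test was made of that difference, and a share of positions upstream above that downstream is set by the window. The median position was 248.5 bp upstream, about the middle of the window, the range, which the window bounds, ran from 949 bp upstream to 463 bp downstream, and 26 members lay within 250 bp. Of the 62, 32 were in first introns. Hosts of such peaks included zip-2, a bZIP factor of the pathogen response, where the signal was 123.8 at 225 bp upstream of the start. They also included fat-4, a fatty acid desaturase gene, with 110.4 at 291 bp upstream, and ins-7, an insulin-like peptide gene, with 89.3 at 260 bp upstream.

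**Figure D3:**
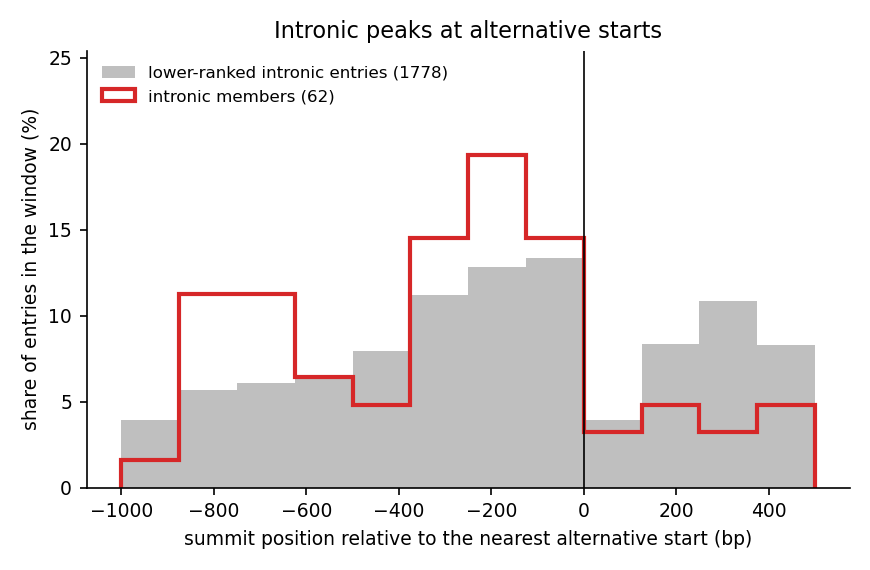
Position of the summit relative to the nearest alternative start of the host gene (x axis, bp, with negative values upstream) for the 62 members (red line) and 1778 lower-ranked intronic entries (grey) at alternative starts, as a share of each set (y axis). A few of the 1778 lie more than 500 bp downstream of the nearest alternative start and in the window of a farther one. These are not drawn but stay in the 1778. Members are upstream in 83.9% and lower-ranked entries in 67.5%, in a window that reaches 1000 bp upstream and 500 bp downstream.

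The associated element had the lowest p of the motifs searched under the members. TGATAAG lay within 50 bp of 29 of 206 summits, 14.1% (exact interval 9.64% to 19.6%), compared with 1.97% of lower-ranked intronic entries (7.14-fold, Fisher's exact test, adjusted p = 1.05e-14 over 9 motifs). The shorter GATA core TGATAA was at 29.6% and 10.9% (adjusted exact p = 2.12e-12). The binding element in its G form, TGTTTAC, was at 6 members, 2.91%, against 1.30% (2.25-fold, adjusted exact p = 0.0794). That value passed in each replicate's own peak set, at 2.79-fold without replicate 1 and 2.73-fold without replicate 2 (adjusted exact p = 0.0106 and 0.0173), and in introns of at least 1000 bp it was 1.31-fold (adjusted exact p = 0.620). The A form TATTTAC was at 2.43% and 2.68% (adjusted exact p = 1). No member held TGATAAG and TGTTTAC together, and 171 held neither.

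Other short sequences were also more frequent at members. GACGCAG was at 8.74% of members and 1.10% of lower-ranked entries (adjusted exact p = 2.71e-10), GAGAGAG at 10.2% and 2.11% (1.54e-08) and the E-box CACGTG at 9.71% and 1.48% (3.54e-10), with adjusted exact p in brackets. Whether GACGCAG and GAGAGAG were picked before these data were seen is not stated, so adjustment over the chosen motifs can be too lenient. Adjusted over all 7-mers instead, the same counts gave adjusted exact p = 5.29e-08 for GACGCAG and 2.80e-06 for GAGAGAG. The E-box is a site for basic helix-loop-helix factors. GGTTCGA, from the internal promoter of transfer RNA genes, was at 4 members, 1.94% against 0.697% (2.79-fold, adjusted exact p = 0.0794). It passed within 100 bp of the summit (2.38-fold, adjusted exact p = 0.0291) and in introns of at least 1000 bp (4.32-fold, adjusted exact p = 0.0277). The cAMP response element TGACGTCA was at 1 member. Members were richer in G and C than lower-ranked entries, with medians of 43.6% and 31.7% of the window, and the part of this difference in the motif counts was measured in 1 range only. In windows of 40 to 50% G or C, chosen after the data were seen, 85 members and 1426 lower-ranked entries were left. There TGATAAG kept a 6.15-fold difference (adjusted exact p = 3.32e-05), while GACGCAG went from 7.91-fold to 2.74-fold and CACGTG from 6.56-fold to 2.86-fold (both with adjusted exact p = 0.0222). GAGAGAG went from 4.83-fold to 2.52-fold (adjusted exact p = 0.0123), and GGTTCGA was at 0.729-fold (adjusted exact p = 1). Neither GACGCAG nor GAGAGAG passed the search over all 7-mers in these windows. In introns of at least 1000 bp GACGCAG was at 4.79-fold and GAGAGAG at 2.94-fold (adjusted exact p = 9.77e-05 and 3.31e-04).

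**Figure D4:**
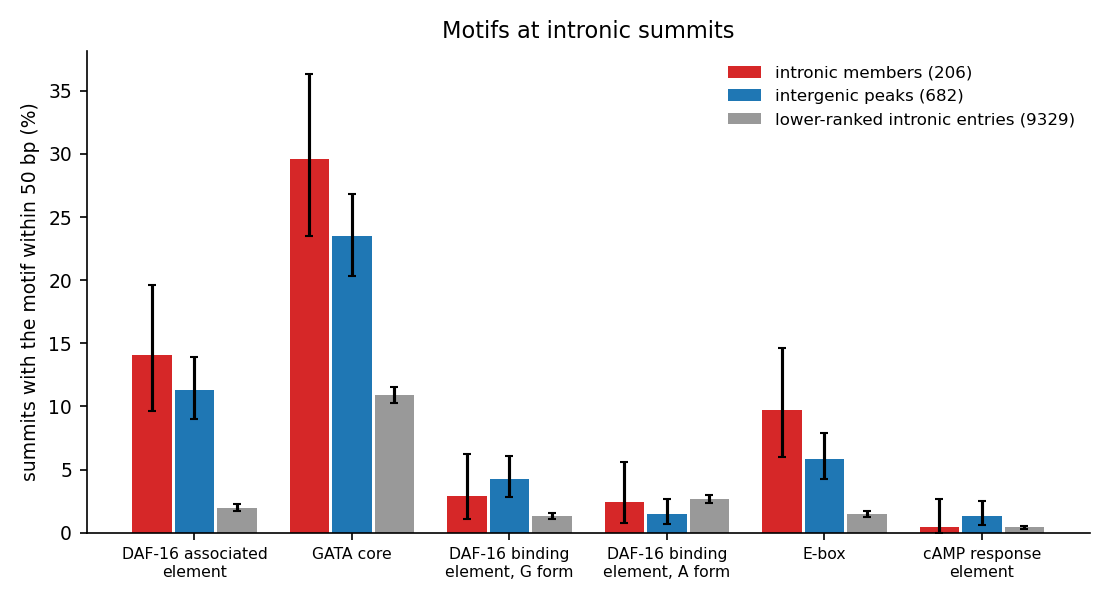
Share of summits with each motif within 50 bp (y axis) in the intronic members (red), intergenic peaks of the optimal set (blue) and lower-ranked intronic entries (grey), with exact 95% intervals that cover the counting of peaks only. The DAF-16 associated element is at 14.1% of members, 11.3% of intergenic peaks and 1.97% of lower-ranked entries.

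Intergenic peaks of the same list, with a median of 45.05% G or C, were closer to the members. TGATAAG was at 11.3% of the 682 intergenic peaks, from 9.01% to 13.9% (adjusted exact p = 0.805 against the members), and TGTTTAC at 4.25%, from 2.87% to 6.05% (0.809). The E-box was at 5.87%, from 4.22% to 7.90% (p = 0.0585, adjusted exact p = 0.363). None of the 9 motifs passed in this comparison within 50 bp of the summit, while within 100 bp TGATAA did, at 46.6% of members and 35.2% of intergenic peaks (1.32-fold, adjusted exact p = 0.0364). A search over all 8192 7-mers, each counted with its reverse complement, found 0 that differed between members and intergenic peaks by Fisher's exact test after adjustment. At an unadjusted p under 0.05, 191 were higher and 48 lower at members. Together these counts are a smaller share of the 8192 than the cut of 0.05, and no difference is read from them.

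Against lower-ranked intronic entries the same search found 149 7-mers more frequent at members, 1.82% of those tested, and 78 less frequent, 0.952%. The lowest adjusted p among the first belonged to CTTATCA, the reverse complement of TGATAAG (adjusted exact p = 2.40e-12, 14.1% against 1.97%). CACGTGA, an extended E-box, was at 6.80% of members and 0.504% of lower-ranked entries (adjusted exact p = 2.34e-08). The less frequent ones were led by AAAAATT, at 5.83% against 34.5% (adjusted exact p = 2.15e-18). In windows of 40 to 50% G or C 4 7-mers passed as more frequent and 0 as less frequent. They were GAGAGAA, at 20% and 3.79% (adjusted exact p = 8.55e-04), and 3 that overlap the associated element, TGATAAG itself among them.

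Members with TGATAAG were not the strongest ones. Their signals ran from 86.9 to 233.3 with a median of 109.0, against 117.2 for other members, and 11 of the 29 were above the members' median. Of the 20 highest members 1 held TGATAAG and 3 held TGTTTAC. After pkg-2, the members with TGATAAG and the highest signals were Y51A2D.13 with 160.0, F59F4.3 with 151.9, daf-16 with 145.9 and mob-2, a gene for a Mob family kinase activator, with 132.9. The members with TGTTTAC and the highest signals were ipla-3, unc-132, F46G10.1 with 197.6, the tyrosylprotein sulfotransferase gene tpst-1 with 169.0 and a separate peak of mob-2 with 155.4. No difference in motif share by position passed the test among members. TGATAAG was at 12 of 86 members in first introns and 17 of 120 in later ones (exact p = 1), and at 10 of 62 members at alternative starts and 19 of 144 others (exact p = 0.663). Of 20 such comparisons among members none passed adjustment, and the lowest p was 0.0345 (adjusted exact p = 0.691), for recovery in both replicates in introns of at least 1000 bp (71.7%) and shorter ones (55.7%).

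The 206 members had 173 host genes, 0.897% of the 19288 protein-coding genes with an intron. In 148 hosts there was 1 member, in 19 there were 2, in 5 there were 3 and in zfp-1 there were 5. Overlapping members, as in klp-6, are counted separately here and in the tests. The zfp-1 gene encodes the homologue of the chromatin protein AF10. Its members had signals of 176.7, 135.7, 100.5, 96.1 and 90.7, and the first of these overlapped the second and matched the same entry in each replicate. The hosts with 3 members were pkg-2, fkh-7, Y111B2A.12, let-526, which encodes a subunit of the SWI/SNF chromatin remodelling complex, and abts-4, a gene of the anion bicarbonate transporter family. The let-526 members had signals of 135.8, 106.9 and 87.3, and those of abts-4 had 162.3, 123.5 and 114.2.

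The share of hosts among 13 gene lists ran from 0 to 18.4%, and the forkhead, GATA and stress response factors had the largest. Of these 38 factors 7 were hosts, with 49.2 members per Mb of their introns, against 6.22 per Mb over all introns. The hosts were fkh-7, with signals of 229.5, 144.4 and 120.2, egl-27, a GATA-type factor of stress resistance, with 193.9, fkh-9 with 172.7, daf-16 with 145.9, zip-2 with 123.8, atf-7, a bZIP factor of innate immunity, with 113.3 and pqm-1 with 97.6. The pqm-1 peak held TGATAAG and had 72.2 in replicate 1 and 41.1 in replicate 2. The egl-27 peak had 102.7 and 91.8 in the replicates, and the fkh-9 peak 96.8 and 82.5. Introns of these genes were long, with a median total of 1900 bp a gene against 800 bp over all genes. The larger lists of transcription factors lay nearer the 0.897% over all genes. Of 274 nuclear hormone receptors 4 were hosts, 1.46%, at 8.17 members per Mb: nhr-3 with 170.9, nhr-19 with 158.2, daf-12, the receptor of dafachronic acids, with 115.9 and nhr-46 with 106.1. Of 98 homeobox genes 1 was a host, 1.02%, at 3.67 per Mb: ceh-60, with 108.7, in an intron of 52 bp that is shorter than the peak.

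Of the 3 lists of signalling genes 2 held hosts. Of 38 genes of insulin, TOR and AMPK signalling 4 were hosts, 10.5%, at 21.1 members per Mb of intron. These were daf-16, ins-7 with 89.3, and, from the AMP-activated kinase that senses cell energy, the subunit genes aakg-1 with 88.0 and aak-2 with 84.7. Apart from daf-16 they lay near the lower end of the members' signals. The ins-7 peak held TGATAAG and lay 198 bp from a small nuclear RNA gene, and it ranked 1797 in replicate 1 and 2107 in replicate 2. Of 45 genes of TGF-beta, Wnt, Notch and EGF signalling 5 were hosts, 11.1%, at 22.7 per Mb. These were daf-5 with 173.7 and daf-14 with 117.2, a Sno/Ski protein and a SMAD of the dauer TGF-beta pathway, sma-9, the Schnurri homologue, with 100.2, the ERK gene mpk-1 with 91.4 and lag-1, the transcription factor of Notch signalling, with 85.5. All of these but sma-9 lay away from any start. None of 44 kinases and phosphatases of calcium and cAMP signalling was a host. Their introns, with a median total of 5550 bp a gene, came to 0.457 Mb. A list of this size is too small to tell a count of 0 from the share over all genes, and the count per Mb was not tested.

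Among the lists of tissue genes and lipid metabolism, hosts numbered at most 2 a list, against a share of 0.897% and 6.22 members per Mb over all genes. Of 44 intestinal genes 1 was a host, 2.27%, at 13.5 members per Mb. It was vit-6, which encodes a yolk protein, in an intron of 91 bp that is shorter than the peak. The vit-6 signal was 90.1, from 28.1 in replicate 1 at rank 6603 and 67.0 in replicate 2 at rank 509. Of 46 lipid metabolism genes 2 were hosts, fat-4 and vit-6, or 4.35%, at 19.8 per Mb. Of 58 neuronal genes 1 was, the kinesin gene unc-104 with 135.4, or 1.72%, at 2.96 per Mb. None of 51 body wall muscle, 70 axon guidance and adhesion, 45 hypodermal and 51 germline genes was a host, and lists of this size are too small to tell a count of 0 from the share over all genes. Their introns came to 0.271, 0.535, 0.177 and 0.0909 Mb in that order, and these counts per Mb were not tested. The lists were chosen with earlier results known, some share genes, and the shares are descriptions with no test.

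The daf-16 gene itself was a host, with 1 member in intron 4 of 11, on chromosome I from 10757895 to 10758314. Its signal was 145.9, with 74.6 in replicate 1 and 78.3 in replicate 2, and ranks of 611 and 332. The window held TGATAAG and lay 4998 bp upstream of the nearest alternative start. The strain carries both the mu86 allele and a daf-16a transgene, and from which copy the signal came was not tested. No member lay in daf-2, where the best of 8 pooled intronic entries ranked 12718 of 30000, or in skn-1, an oxidative stress factor, where it ranked 2922. None lay in elt-2, where the only pooled intronic entry ranked 21210. The pooled list held no intronic entry of sod-3, the superoxide dismutase gene that serves as a common DAF-16 reporter. Introns came to about 38000 bp in daf-2, 5100 bp in skn-1, 500 bp in elt-2 and 700 bp in sod-3. At 6.22 members per Mb over all introns, such lengths are too short to read a lack of members. Peaks of these genes outside introns are not described here.

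Members were spread over the chromosomes, with 33 on I, 31 on II, 38 on III, 32 on IV, 30 on V and 42 on X. Per Mb of intron, X had 7.77, with an exact interval from 5.60 to 10.5, and V, the lowest, 4.99, from 3.37 to 7.13, and these intervals overlap.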

How the data were processed

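Peak lists on ce11 were used: 1 per replicate (28175 and 22676 entries), 1 pooled (30000) and the optimal set thresholded by the irreproducible discovery rate (1489). Each entry carries a signal deposited by the authors on an unstated scale; aligner, peak caller and cut-off: not given in the sources used here. Per the deposited sample notes, replicate and pooled lists were derived from the sample alignments and a further file that the control-normalized tracks also used. The lists hold no read counts, so depth is unknown and exact (Clopper-Pearson) 95% intervals cover the counting of peaks only. The ce10 lists were not used.

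Summits were placed in genes with the WBcel235 assembly and Ensembl release 115. Motifs were searched on both strands within 50 bp. Fisher's exact tests (two-sided, Benjamini-Hochberg adjusted over 9 motifs or 8192 7-mers, threshold 0.05) set members against distinct lower-ranked intronic summits of the pooled list or intergenic peaks. The 7-mer search was also run on simulated windows, whose outcome is not given and is not used as support. Tools were Python 3.11.15 with pandas 2.3.3, scipy 1.17.1, matplotlib 3.10.9 and numpy 2.4.6.

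Members and lists were chosen with earlier results of these data known. Named genes were hosts of the 12 highest members, of 3 or more members, of the 5 highest with TGATAAG or TGTTTAC, of the 3 lowest, the 4 highest of each list, and daf-16, daf-2, sod-3, elt-2 and skn-1. Beyond that rule, zip-2, atf-7, pqm-1 and lag-1 complete their lists and were named with their values known.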

Additional observations from a re-analysis of the deposited data

How the results depend on the processing

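With each replicate's own 1489 highest peaks, the TGATAAG difference from lower-ranked entries ran from 4.52-fold to 5.40-fold, first introns from 1.42 to 1.55, alternative starts from 1.51 to 1.63, 7-mers from 128 to 181 and TGTTTAC from 2.73 to 2.79. TGATAAG kept its call under all 11 alternatives run, from 4.52-fold to 8.09-fold. TGTTTAC, not called at 2.25-fold, passed among the 94 members of higher signal (4.10), within 100 bp of the summit (2.74) and without members by other non-coding genes (2.64, chosen after the data were seen), and was 0.794 at 25 bp, 1.31 in introns of at least 1000 bp and 2-fold against windows 500 bp to both sides. GGTTCGA (2.79, not called) passed within 100 bp (2.38), in introns of at least 1000 bp (4.32) and without members by other non-coding genes (3.49), and was 0.729 at 40 to 50% G or C. Against intergenic peaks TGATAA passed within 100 bp (1.32). First introns (1.29) and alternative starts (1.34) lost their calls among those 94 members, and alternative starts also in introns of at least 1000 bp (1.28) and at 40 to 50% G or C (1.33). The 149 7-mers became 45 among the 94 members, 65 in introns of at least 1000 bp and 4 at 40 to 50% G or C, where fewer members were tested. The cause of these changes was not tested. No alternative reversed a called direction. No paired analysis was possible because both replicates belong to 1 group. The number of peaks limits the rarer motifs, and with no counts a weak intronic peak cannot be told from background.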
